A study of Mus musculus with 12 samples.

Results

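The transcripts described here are Igf2, Igf2os, H19 and Th, 4 of the 48709 genes in the deposited count table, chosen by name as genes of the imprinted Igf2 domain. They were measured in 12 islet RNA libraries from female mice labelled NSG RIP-DTR Htz, 3 libraries in each of 4 groups. The CTRL group had no treatment, and the other groups received diphtheria toxin (DT) and were collected at the time points labelled 1, 3 and 5 DPA. All groups, CTRL included, carry the RIP-DTR transgene, in which the rat insulin promoter drives a diphtheria toxin receptor in beta cells, and toxin removes part of these cells. In the published RIP-DTR line the transgene is X-linked, so a heterozygous female is a mosaic of beta cells with and without an active copy. NSG is an immunodeficient strain that lacks lymphocytes. The age of the mice is not given. The choice of these genes used their counts over all 4 groups, so their levels and fold changes are given as a description, with no test.

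Igf2 encodes insulin-like growth factor 2, a growth factor of fetal life that is silenced in most mouse tissues after birth. It is transcribed from the paternal chromosome, while the long noncoding RNA H19 is transcribed from the maternal one, and a control region between the pair, bound by the insulator protein Ctcf when unmethylated, directs shared enhancers to one or the other. Igf2os is an antisense RNA that starts inside Igf2. Th, the rate-limiting enzyme of catecholamine synthesis, lies on the far side of the insulin gene Ins2 and is known in sympathetic neurons and in some beta cells. The files do not separate the parental alleles.

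All 4 genes lie on chromosome 7 of mm10. Igf2 spans chr7:142650766-142666816 on the minus strand and Igf2os spans chr7:142659693-142670356 on the plus strand. The exons of Igf2os cover 5337 bases, of which 98 also lie in exons of Igf2 and 2166 lie within its span. H19, at chr7:142575529-142578143 on the minus strand, is 72.6 kb from Igf2. Th, at chr7:142892752-142931128 on the minus strand, is 225.9 kb away on the other side. Ins2 lies between Igf2 and Th, 11.8 kb from Igf2.

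RefSeq's promoter table for GRCm38.p6, which gives 250 bases before and 50 after each transcript start, held 5 windows for 2 of the 4 genes, 4 for Igf2 and 1 for Th. The most downstream and the most upstream start of Igf2 are shown because they bound its promoters, and the second lies inside the antisense gene Igf2os. The Th window is shown for contrast. All 3 are on the minus strand, written 5′ to 3′. Capitals mark the GC box GGGGCGGGG of SP and KLF factors in the Igf2 window, and the AP-1 motif TGANTCA and the cAMP response element TGACGTCA in the Th window.
Igf2 downstream start, chr7:142657447-142657746: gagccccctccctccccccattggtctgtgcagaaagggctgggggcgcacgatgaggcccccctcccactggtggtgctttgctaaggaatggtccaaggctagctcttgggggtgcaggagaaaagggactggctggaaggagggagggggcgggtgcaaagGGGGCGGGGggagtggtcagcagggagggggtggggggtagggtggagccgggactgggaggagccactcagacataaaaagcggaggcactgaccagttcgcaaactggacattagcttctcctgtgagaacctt
Igf2 upstream start, chr7:142666767-142667066: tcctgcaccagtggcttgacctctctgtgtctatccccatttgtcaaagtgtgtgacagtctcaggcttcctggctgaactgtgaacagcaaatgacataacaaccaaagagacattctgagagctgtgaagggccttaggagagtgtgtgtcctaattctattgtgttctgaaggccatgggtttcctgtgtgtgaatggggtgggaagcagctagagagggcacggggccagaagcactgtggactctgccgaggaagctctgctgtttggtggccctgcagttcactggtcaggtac
Th, chr7:142899946-142900245: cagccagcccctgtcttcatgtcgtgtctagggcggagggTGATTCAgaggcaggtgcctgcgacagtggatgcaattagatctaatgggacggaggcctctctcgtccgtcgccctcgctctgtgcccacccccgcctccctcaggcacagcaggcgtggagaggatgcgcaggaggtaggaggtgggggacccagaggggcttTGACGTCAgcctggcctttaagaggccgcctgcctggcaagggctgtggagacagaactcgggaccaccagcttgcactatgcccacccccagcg

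The GC box began at position -86 of the downstream Igf2 start and was held, on either strand, by 11.4% of the 32851 promoter windows. In the Th window the AP-1 match began at -210 and the cAMP response element at -45, and they were held by 7.81% and 1.79% of windows. The EGR motifs GCGTGGGCG and GCGGGGGCG, the NBRE motif AAAGGTCA and the TATA motif TATAAA had no match on either strand in any of the 5 windows, and were held by 0.612%, 2.91%, 1.51% and 13.6% of all windows. The Igf2 windows differed in base composition, with 63.3% G and C at the downstream start and 52.3% at the upstream start, against a median of 52.7% over all windows. The matches did not overlap one another, and they describe letters and not binding.

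Libraries held 29867083 to 50012558 counts, and 17294 genes passed the filter on low counts, including all 4 genes described here. With edgeR's quasi-likelihood test, an adjusted p under 0.05 (a gene so called is "called" below) was reached by 51.6% of tested genes at 1 DPA, 12.6% at 3 DPA and 8.54% at 5 DPA. With 1477 genes in the fit of all libraries, the count at 5 DPA dropped to 462 without DT 5 DPA replicate 1, 726 without CTRL replicate 2, 745 without CTRL replicate 3 and 823 without DT 5 DPA replicate 3. The 3 DPA figure, 2182 genes, changed to 1372 without DT 3 DPA replicate 1. Of the genes called at 3 DPA 81.2% were higher, a share of 67.1% with library sizes without the 50 most abundant genes. All 8 beta cell markers were detected in every group, with a summed level of 182790 to 203320 CPM (counts per 1000000, scaled by TMM) in CTRL, 106083 to 162721 at 1 DPA, 150516 to 187839 at 3 DPA and 153271 to 207030 at 5 DPA. These levels fit the islet label. In bulk RNA, fewer cells of a type and less RNA per cell cannot be told apart.

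Igf2 had 585, 534 and 456 counts in the CTRL libraries. At 1 DPA it had 21774, 28988 and 38829 counts, at 3 DPA 25025, 8420 and 17504, and at 5 DPA 8288, 9521 and 5904. Every DT library was above every CTRL library. Scaled for depth, Igf2 averaged 12.7 ± 2.55 CPM in CTRL, 865 ± 328 at 1 DPA, 376 ± 146 at 3 DPA and 170 ± 16.8 at 5 DPA (SD, n = 3 each). The fold of means over CTRL was 68.1, 29.6 and 13.4 at 1, 3 and 5 DPA, and the fitted log2 fold changes were 6.09 ± 0.40, 4.89 ± 0.38 and 3.74 ± 0.36 (SE). The level was highest at 1 DPA and lower at each later time, and the 3 time points did not overlap in CPM.

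Libraries of 1 time point differed in Igf2 at 1 and 3 DPA. At 1 DPA Igf2 stood at 599, 765 and 1231 CPM in replicates 1, 2 and 3, the same libraries in which the 8 beta cell markers summed to 162721, 141285 and 106083 CPM and the 7 acinar markers to 39599, 19328 and 4163 CPM. The library with the most Igf2 thus had the fewest transcripts of both kinds, and their part in the Igf2 value was not tested. Acinar markers ranged from 8169 to 52282 CPM in CTRL, with none at 0. At 3 DPA the libraries stood at 530, 238 and 362 CPM, with beta cell markers at 150516, 187839 and 176861 CPM and acinar markers at 7271, 10005 and 3428 CPM. At 5 DPA they stood close together, at 157, 189 and 163 CPM.

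**Figure D1:**
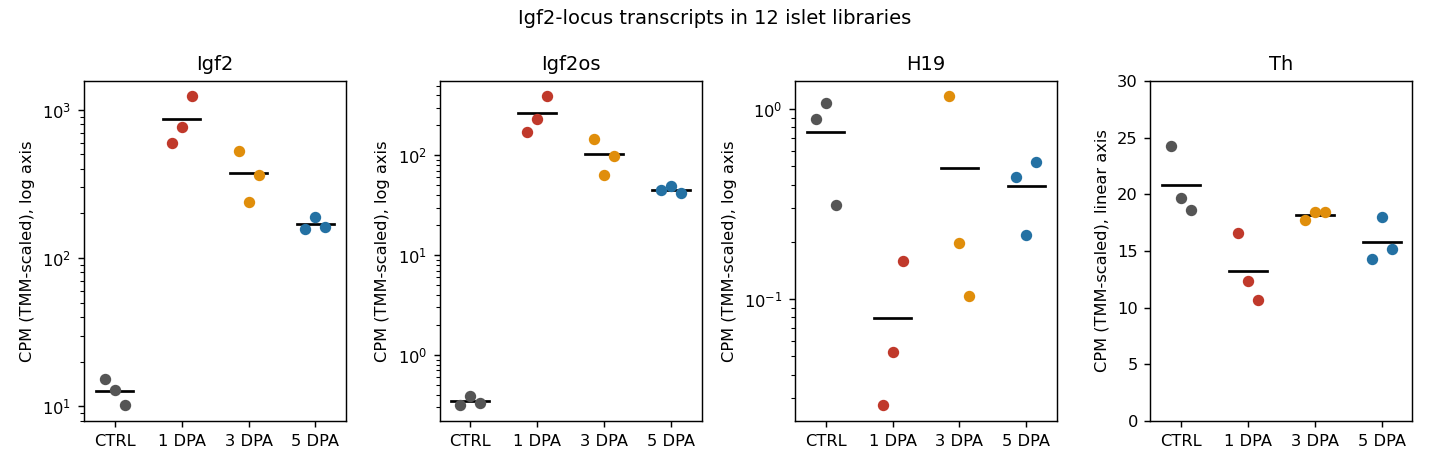
Level of each transcript in CPM (TMM-scaled counts per 1000000) by group, with a log axis for Igf2, Igf2os and H19 and a linear axis for Th. Points are the 3 libraries of a group in replicate order and lines are group means. Igf2 and Igf2os lie far above CTRL in all 9 DT libraries and descend with time, H19 is lowest at 1 DPA, and Th stays between 10.7 and 24.2 CPM.

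Among all genes of a library, ordered by deposited TPM (transcripts per 1000000, which allows for gene length), Igf2 ranked 10081, 10529 and 10893 in CTRL, where 19115 to 19504 genes had a value above 0. It ranked 254, 185 and 94 at 1 DPA, 326, 922 and 551 at 3 DPA and 1465, 1162 and 1446 at 5 DPA. In 1 DPA libraries Igf2 was therefore among the most abundant transcripts of the islet preparation. Its mean TPM was 4.80 ± 0.98 in CTRL, 396 ± 200 at 1 DPA, 154 ± 65.0 at 3 DPA and 69.8 ± 3.71 at 5 DPA (SD, n = 3 each). By log2 fold change it ranked 124th highest of the 17294 tested genes at 1 DPA, 243rd at 3 DPA and 229th at 5 DPA.

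Igf2os, the antisense RNA, was near absent from CTRL islets, with 12, 16 and 15 counts. It had 6177, 8845 and 12262 counts at 1 DPA, 6890, 2268 and 4720 at 3 DPA, and 2355, 2478 and 1531 at 5 DPA. No DT library overlapped CTRL. Igf2os averaged 0.343 ± 0.037 CPM in CTRL, 264 ± 113 at 1 DPA, 102 ± 41.0 at 3 DPA and 45.4 ± 3.50 at 5 DPA (SD, n = 3 each). The log2 fold changes of 9.57 ± 0.53, 8.21 ± 0.52 and 7.03 ± 0.51 (SE) at 1, 3 and 5 DPA ranked 9th, 31st and 24th highest among the 17294 tested genes.

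The antisense RNA was also more abundant relative to Igf2. For every 100 Igf2 counts there were 2.05, 3.00 and 3.29 Igf2os counts in the CTRL libraries. The ratio was 28.4, 30.5 and 31.6 at 1 DPA, 27.5, 26.9 and 27.0 at 3 DPA, and 28.4, 26.0 and 25.9 at 5 DPA. All 9 DT libraries thus held between 25.9 and 31.6 Igf2os counts per 100 Igf2 counts, although Igf2 itself differed by several fold among them. The library kit keeps strand, but whether the counting used it is not given in the sources used here. Without strand, reads from Igf2 and from Igf2os cannot be told apart where the genes overlap, so both values carry this uncertainty.

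**Figure D2:**
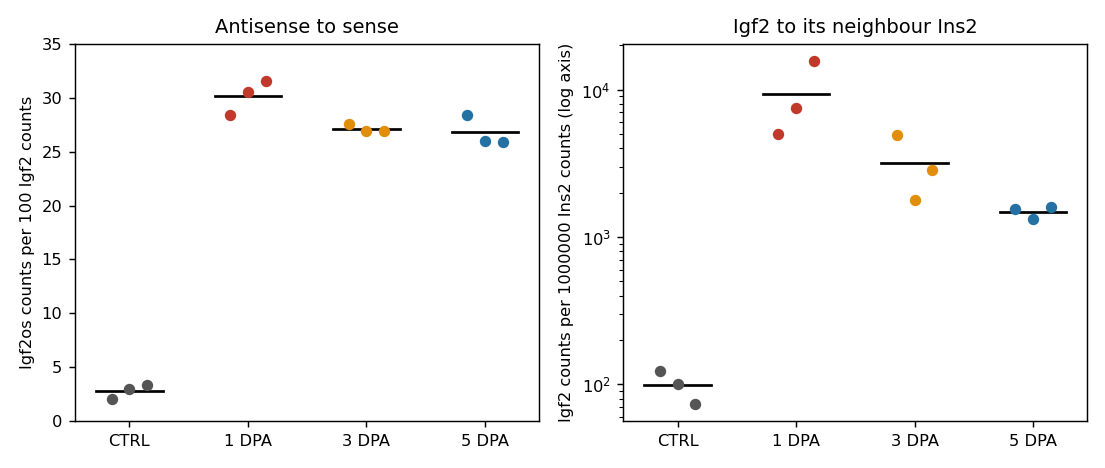
Left, Igf2os counts per 100 Igf2 counts in each library (linear axis from 0). Right, Igf2 counts per 1000000 Ins2 counts (log axis). Points are libraries and lines are group means. The antisense ratio is 2.05 to 3.29 in CTRL and 25.9 to 31.6 in every DT library, while the ratio to Ins2 is highest at 1 DPA and descends.

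H19, the noncoding RNA transcribed from the maternal chromosome, was scarce in all groups. It had 34, 45 and 14 counts in CTRL, 1, 2 and 5 at 1 DPA, 55, 7 and 5 at 3 DPA, and 23, 11 and 19 at 5 DPA. The 1 DPA libraries were all below the CTRL libraries, while 3 and 5 DPA overlapped CTRL. Summed over a group the counts were 93 in CTRL (exact Poisson 95% interval 75.1 to 114), 8 at 1 DPA (3.45 to 15.8), 67 at 3 DPA (51.9 to 85.1) and 53 at 5 DPA (39.7 to 69.3), and these intervals cover counting error only. The means were 0.758 ± 0.400 CPM in CTRL, 0.0796 ± 0.0695 at 1 DPA, 0.488 ± 0.587 at 3 DPA and 0.393 ± 0.158 at 5 DPA (SD, n = 3 each).

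The H19 log2 fold changes were -3.25 ± 0.98, -0.61 ± 0.78 and -0.95 ± 0.80 (SE) at 1, 3 and 5 DPA. Replicate 1 held 55 of the 67 counts at 3 DPA, and without it the 3 DPA value was -2.38. Without DT 1 DPA replicate 3 the 1 DPA value was -4.19. H19 is known in fetal and mesenchymal tissue. Stromal and macrophage transcripts were also low at 1 DPA. The 8 stromal markers summed to 507 to 1762 CPM in CTRL, 550 to 693 at 1 DPA, 1157 to 1794 at 3 DPA and 2649 to 4421 at 5 DPA, and no stromal marker was at 0 in any group. The 7 macrophage markers summed to 109 to 501 CPM in CTRL, 81.9 to 100 at 1 DPA, 186 to 326 at 3 DPA and 531 to 739 at 5 DPA, also with none at 0. CTRL replicate 3 had the fewest H19 counts of its group and the lowest sums of both lists. At 3 DPA replicate 3 had the highest stromal and macrophage sums of its group, 1794 and 326 CPM, and 5 H19 counts. Replicate 1 there had sums of 1720 and 318 CPM and 55 H19 counts. At 5 DPA both sums lay above those of CTRL, while mean H19 was lower (0.393 against 0.758 CPM). The part of these cells in the H19 values was not tested.

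Th had 932, 821 and 840 counts in CTRL, 602, 468 and 336 at 1 DPA, 839, 652 and 893 at 3 DPA, and 753, 906 and 551 at 5 DPA. Scaled for depth the values were 24.2, 19.7 and 18.6 CPM in CTRL, 16.6, 12.4 and 10.7 at 1 DPA, 17.8, 18.4 and 18.4 at 3 DPA, and 14.3, 18.0 and 15.2 at 5 DPA. Every DT library was below every CTRL library on this scale, but the highest library at 3 DPA, at 18.4 CPM, was close to the lowest in CTRL, at 18.6 CPM. In deposited TPM the CTRL libraries, at 16.8 to 22.7, overlapped both 3 DPA, at 17.7 to 18.1, and 5 DPA, at 15.1 to 17.0, and not 1 DPA, at 12.97 to 15.6. The log2 fold changes were -0.66 ± 0.16, -0.19 ± 0.15 and -0.40 ± 0.15 (SE) at 1, 3 and 5 DPA.

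The 1 DPA libraries with less Th were those with fewer beta cell transcripts, in the same order (16.6, 12.4 and 10.7 CPM of Th beside 162721, 141285 and 106083 CPM of beta cell markers), and acinar markers took that order too. In CTRL the order was reversed, with 24.2, 19.7 and 18.6 CPM of Th beside 182790, 184648 and 203320 CPM of beta cell markers. At 3 DPA Th stood at 17.8 to 18.4 CPM while these markers ranged from 150516 to 187839 CPM. At 5 DPA both took the same order (14.3, 18.0 and 15.2 CPM beside 153271, 207030 and 155258 CPM). Markers of sympathetic neurons, the other cells in which Th is known, were low at 1 DPA, but in CTRL their lowest sum was in replicate 1, which had the most Th. The 8 markers summed to 106 to 150 CPM in CTRL, 68.3 to 91.0 at 1 DPA, 125 to 156 at 3 DPA and 126 to 169 at 5 DPA, and none was at 0 in any group. The part of these cell types in the Th level was not tested.

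Per length, the order of the 4 transcripts was the same in all libraries of a condition. In all 3 CTRL libraries TPM descended from Th to Igf2, H19 and Igf2os. In all 9 DT libraries it descended from Igf2 to Igf2os, Th and H19. The ratio of Igf2 TPM to Th TPM was 0.224 to 0.269 in CTRL, 14.9 to 47.7 at 1 DPA, 5.33 to 12.3 at 3 DPA and 4.34 to 4.55 at 5 DPA. The ratio of Igf2 TPM to that of Igf1, the other ligand of the Igf1 receptor, was 0.926 to 7.05 in CTRL, 271 to 448 at 1 DPA, 42.0 to 78.3 at 3 DPA and 11.3 to 20.3 at 5 DPA.

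Likeness to other genes was measured as Pearson's r of log2 CPM over the 12 libraries, among 12872 named genes for which edgeR's AveLogCPM, the log2 of abundance averaged over the libraries, reached 1. Some, such as Amhr2, pass only through the groups where they are high. The measure is a description, since libraries of a group share treatment and each library shares its depth across genes. The genes most like Igf2 were Amhr2, a receptor of anti-Mullerian hormone (r = 0.992), Igf2os (0.990), Tsx (0.989), the histone gene Hist1h3b (0.989) and the small nucleolar RNA host gene Snhg15 (0.989). Amhr2 averaged 0.058 CPM in CTRL, 15.3 at 1 DPA, 4.64 at 3 DPA and 2.14 at 5 DPA. Those most like Igf2os were Hist1h3b (0.993), Igf2 (0.990), Hist1h2bn (0.987), Lax1 (0.987) and the melanocortin receptor Mc1r (0.987). Those most like Th included H1f0, a linker histone (0.920), Tmem107 (0.916), Cutal (0.914) and Prr15l (0.909). With Igf2, H19 had r = -0.58 and Th had r = -0.70.

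Ins2, the gene between Igf2 and Th, was not called at any time. It encodes insulin, shares sequence with Ins1, and averaged 100160 ± 20250 CPM at 1 DPA, 122500 ± 13960 at 3 DPA and 115630 ± 22780 at 5 DPA, against 129110 ± 7051 in CTRL (SD, n = 3 each). Its log2 fold changes of -0.37 ± 0.16, -0.08 ± 0.16 and -0.16 ± 0.16 (SE) were not called (edgeR, adjusted p = 0.080, 0.83 and 0.60). Set against Ins2, Igf2 had 5030 to 15613 counts per 1000000 Ins2 counts at 1 DPA, 1778 to 4952 at 3 DPA and 1330 to 1588 at 5 DPA, against 73.8 to 123 in CTRL.

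Within 500 kb of Igf2 the table held 49 further rows, of which 15 were at 0 in all 12 libraries, 18 could be tested and 13 reached 1 CPM in some group. Of the 6 rows between H19 and Th only Ins2 reached 1 CPM, and 3 were at 0 throughout. At 1 DPA 3 of the 18 tested neighbours were higher and 5 lower, against 29.2% higher and 22.4% lower among all tested genes, with a median log2 fold change of -0.35 against -0.05 for all genes. At 3 DPA 5 were higher and 1 lower, against 10.2% and 2.37%, with a median of 0.04 against -0.01. At 5 DPA 4 were higher and 1 lower, against 5.87% and 2.67%, with a median of 0.54 against 0.01. The higher neighbours included Gm4553 and Gm10153 at each time and Krtap5-5 at 3 and 5 DPA. These genes had 0 counts in CTRL and passed the filter on low counts only through DT libraries, where they are high. RP23-145I16.3, a higher neighbour with 13, 3 and 6 counts in the CTRL libraries, also passed the filter only through DT libraries. The calls of all these genes, and their part in these counts, are therefore a description. The 5 DPA count of 4 higher was 7 without CTRL replicate 1. With only the 2 compared groups in the fit, the higher neighbours numbered 0 at 1 DPA and 0 at 5 DPA, and the lower ones at 1 DPA numbered 3.

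All neighbours called higher lay on the H19 side, farther from Igf2 than Lsp1. Krtap5-5, a hair keratin-associated protein gene, had 0 counts in CTRL, 134 at 3 DPA and 38 at 5 DPA summed over each group. Set against the 3 counts that a sum of 0 still allows in the CTRL group, this was at least 44.2-fold and 12.1-fold higher. Its relative Gm4553, with 0 CTRL counts too, exceeded CTRL by at least 12.1-fold at 1 DPA, by 35.9-fold at 3 DPA and by 9.90-fold at 5 DPA. Gm10153, also at 0 in CTRL, exceeded it by at least 4.43-fold, 20.8-fold and 5.75-fold, and its 5 DPA call (adjusted p = 0.029) was lost without CTRL replicate 2 (0.069) or 3 (0.072) or DT 5 DPA replicate 1 (0.088) or 2 (0.067). The genes of this keratin-associated family are near-identical copies, so the split of reads among them is uncertain. Ifitm10 was higher at 3 DPA, by 1.99 ± 0.41 log2 units (edgeR adjusted p = 0.0066), and RP23-145I16.3, annotated as Gm49369, was higher at 1 DPA (1.79 ± 0.68, adjusted p = 0.044) and 3 DPA (3.92 ± 0.67, adjusted p = 0.0020). The span of RP23-145I16.3 overlaps those of Ifitm10 and Ctsd on the same strand, so the split of reads among them is uncertain too. The 1 DPA call of RP23-145I16.3 was lost without CTRL replicate 2 (0.15) or 3 (0.11) or DT 1 DPA replicate 2 (0.062) or 3 (0.24). Its calls are a description, since it passed the filter on low counts only through DT libraries.

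Nearer to Igf2 and on the Th side, no neighbour was called higher. Mrpl23, a mitochondrial ribosomal protein gene beyond H19, differed from CTRL by 0.02 ± 0.08, 0.06 ± 0.08 and 0.03 ± 0.08 log2 units at 1, 3 and 5 DPA and was not called. Trpm5, a cation channel of beta and taste cells, was lower at all 3 times, with 70.4 ± 3.61 CPM at 1 DPA, 88.5 ± 11.1 at 3 DPA and 71.4 ± 12.1 at 5 DPA against 118 ± 5.76 in CTRL (edgeR adjusted p = 0.00023, 0.034 and 0.0047). Its 3 DPA call was lost without CTRL replicate 3, DT 3 DPA replicate 1 or DT 3 DPA replicate 3 (adjusted p = 0.093, 0.098 and 0.096), which left 0 lower neighbours at that time. Cd81, a tetraspanin, was lower at 1 DPA by 0.41 ± 0.08 log2 units (adjusted p = 0.00093). Tssc4, Kcnq1 and R74862, and Prr33 on the H19 side, reached 1 CPM and were not called at any time, with adjusted p of 0.12 or more. Tssc4, for example, stood at 76.7 ± 6.82 CPM at 1 DPA, 73.8 ± 3.13 at 3 DPA and 77.3 ± 7.98 at 5 DPA, against 83.7 ± 12.5 in CTRL.

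Among neighbours that immune cells express, Lsp1 on the H19 side, a leukocyte actin-binding protein, fell at 1 DPA to 3.18 ± 0.21 CPM, against 32.7 ± 35.8 in CTRL, where the libraries held 72.3, 22.8 and 2.86 CPM. Its log2 fold change of -3.36 ± 1.13 was called (edgeR adjusted p = 0.034), although the groups overlapped, and the call was lost without CTRL replicate 1 (0.14) or without DT 1 DPA replicate 1 (0.088), 2 (0.089) or 3 (0.074). Tspan32, a tetraspanin of blood cells that lies beyond Th, also fell at 1 DPA (-3.58 ± 0.99, adjusted p = 0.010). This rests on 3 counts in all of 1 DPA against 46 in CTRL. CTRL replicate 3, at 0.111 CPM, was close to DT 1 DPA replicate 3, at 0.095 CPM. Ctsd, the lysosomal protease cathepsin D, was lower at 1 DPA, with 251 ± 10.4 CPM, and higher at 5 DPA, with 811 ± 88.3 CPM, against 399 ± 108 in CTRL (adjusted p = 0.0086 and 0.0077). The 5 DPA call of Ctsd was lost with only the 2 compared groups in the fit (edgeR adjusted p = 0.068). Lsp1 and Tspan32 were not called at 3 or 5 DPA. The 7 macrophage markers summed to 81.9 to 100 CPM at 1 DPA and 531 to 739 CPM at 5 DPA, against 109 to 501 CPM in CTRL, and their part in these 3 genes was not tested.

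**Figure D3:**
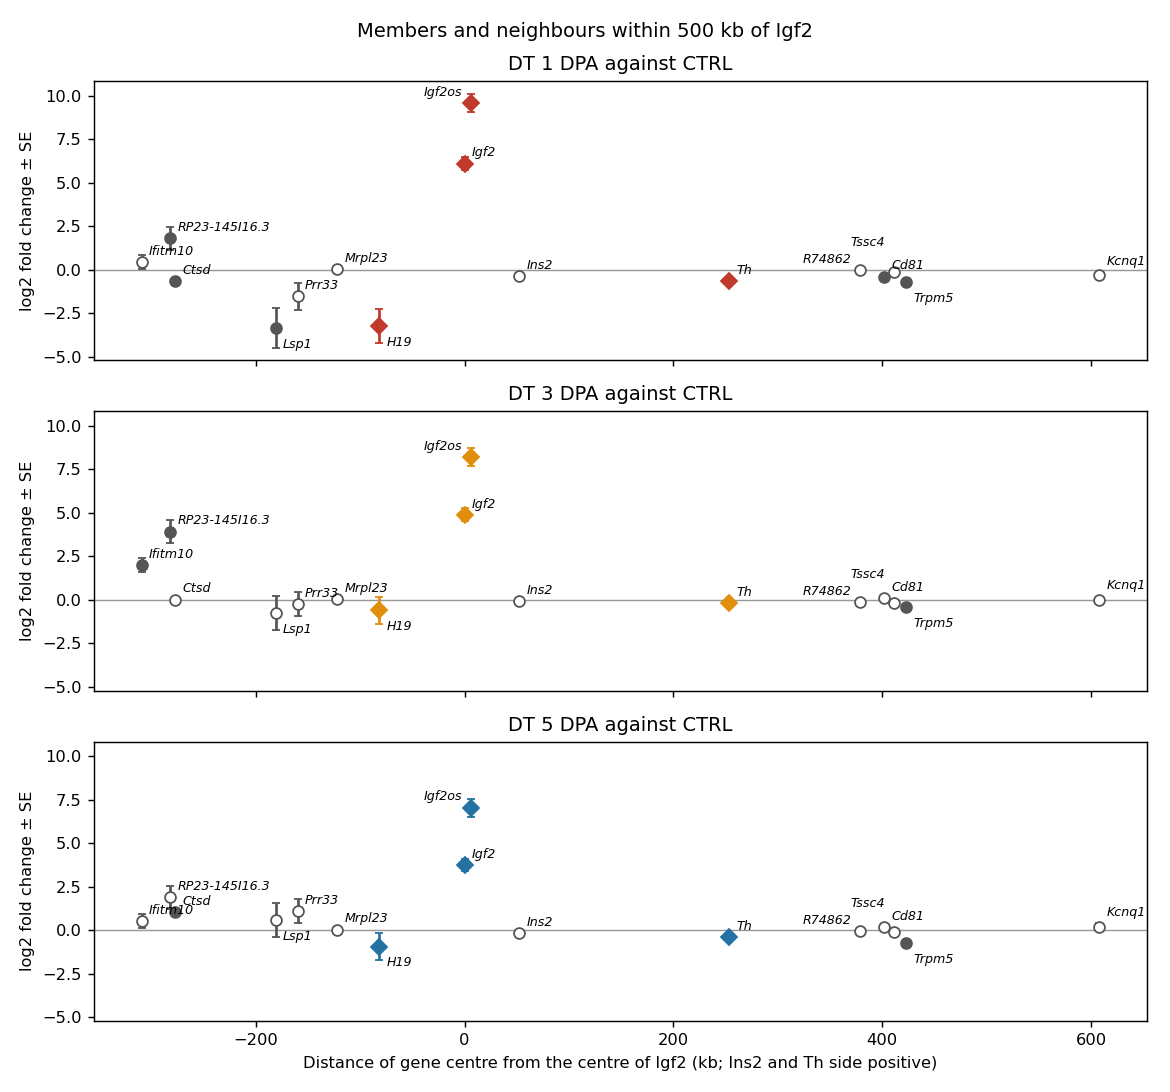
Log2 fold change against CTRL (± SE) of the 4 transcripts (coloured diamonds) and of neighbours that reached 1 CPM and had counts in CTRL (grey circles, filled where called), by distance from the centre of Igf2 in kb. Igf2 and Igf2os stand above all circles drawn at each time, and Ins2 and Mrpl23 lie near 0. Neighbours with 0 counts in CTRL are not drawn, and some of their fitted changes were larger than that of Igf2. This held for Gm4553 at each time and for Krtap5-5 and Gm10153 at 3 and 5 DPA. At 3 DPA the change of Krtap5-5 was also larger than that of Igf2os. These fitted changes rest on 0 counts in CTRL.

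Igf2 acts through the Igf1 receptor and the insulin receptor and is cleared by Igf2r, and binding proteins and their proteases govern its access. Of 23 tested ligands, receptors, binding proteins and mRNA-binding proteins of this system, 4 were higher and 9 lower at 1 DPA, 4 higher and 2 lower at 3 DPA, and 4 higher and 1 lower at 5 DPA. In all, 56.5%, 26.1% and 21.7% of the list were called at 1, 3 and 5 DPA, against 51.6%, 12.6% and 8.54% of all tested genes. The median log2 fold changes were -0.37, 0.03 and 0.36, against -0.05, -0.01 and 0.01 for all genes. The 1 DPA count of 4 higher was 2 without DT 1 DPA replicate 2, and the 3 DPA count of 2 lower was 1 without DT 3 DPA replicate 3. The 5 DPA count of 4 higher was 1 without DT 5 DPA replicate 1 and 2 without CTRL replicate 2, CTRL replicate 3 or DT 5 DPA replicate 3, and with only the 2 compared groups in the fit it was 0.

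Of the receptors, Igf1r rose at 1 DPA to 303, 323 and 232 CPM, against 89.5, 100.01 and 99.7 CPM in CTRL. This was 2.97-fold (log2 1.57 ± 0.13, edgeR adjusted p = 2.2e-06), and no 1 DPA library overlapped CTRL. At 3 and 5 DPA Igf1r stood at 93.7 ± 14.1 and 89.7 ± 4.79 CPM, against 96.4 ± 5.98 in CTRL, and was not called (log2 -0.04 ± 0.13 and -0.10 ± 0.13). The insulin receptor Insr was lower at each time, by 0.34, 0.25 and 0.25 log2 units (SE 0.06 each, adjusted p = 0.00033, 0.010 and 0.019). The 3 DPA call of Insr was lost without DT 3 DPA replicate 3 (0.054), and the 5 DPA call without CTRL replicate 3 (0.065) or without DT 5 DPA replicate 1 (0.088) or 2 (0.056). The scavenging receptor Igf2r was lower at 1 DPA by 0.17 ± 0.06 log2 units (adjusted p = 0.021), a call lost without CTRL replicate 3 (0.075), and was not called at 3 DPA (0.11 ± 0.06) or 5 DPA (-0.05 ± 0.06).

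Downstream of the receptors, Irs2, the insulin receptor substrate of beta cells, rose at all 3 times and followed the time order of Igf2. It stood at 358 ± 31.8 CPM at 1 DPA, 215 ± 26.5 at 3 DPA and 106 ± 7.78 at 5 DPA, against 51.3 ± 16.5 in CTRL (log2 2.80 ± 0.20, 2.07 ± 0.20 and 1.05 ± 0.19, edgeR adjusted p = 1.7e-06, 7.6e-05 and 0.011). The 5 DPA call of Irs2 was lost with only the 2 compared groups in the fit (edgeR adjusted p = 0.075). Of the ligands, Igf1 had 4.04 ± 1.20 CPM at 1 DPA against 15.2 ± 11.3 in CTRL, where the libraries held 19.1, 24.0 and 2.48 CPM and overlapped the DT libraries. Its call (log2 -1.91 ± 0.66, adjusted p = 0.037) was lost without CTRL replicate 1 (0.088) or 2 (0.11) and without DT 1 DPA replicate 1 (0.097), 2 (0.11) or 3 (0.055). Igf1 is made by macrophages and stromal cells, whose summed markers were, like Igf1, lowest of CTRL in replicate 3. CTRL replicate 2 had more Igf1 than replicate 1 but lower sums of macrophage markers (317 against 501 CPM) and stromal markers (1398 against 1762 CPM). The part of these cells in the Igf1 values was not tested.

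Of the proteins that bind or release IGFs, Pappa, a protease of IGF-binding proteins, rose to 3.83 ± 1.02 CPM at 1 DPA, 5.72 ± 0.35 at 3 DPA and 5.41 ± 1.00 at 5 DPA, against 1.94 ± 0.72 in CTRL (edgeR adjusted p = 0.013, 0.0031 and 0.011). The 1 DPA call was lost without DT 1 DPA replicate 2 (0.052) and the 5 DPA call without DT 5 DPA replicate 1 (0.051). Igfals, which stabilises circulating IGF complexes, fell by 0.77 ± 0.12 log2 units at 1 DPA and 0.76 ± 0.11 at 3 DPA (adjusted p = 0.00016 and 0.00085) and was not called at 5 DPA (-0.38 ± 0.11, adjusted p = 0.062). Igfbp7 was lower at 1 DPA (-0.52 ± 0.14, adjusted p = 0.0070) and higher at 5 DPA (0.54 ± 0.14, adjusted p = 0.033). The 5 DPA call of Igfbp7 was lost without CTRL replicate 2 (0.085) or 3 (0.071) or without DT 5 DPA replicate 1 (0.14) or 3 (0.064).

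The Igf2 mRNA-binding proteins bind transcripts of Igf2 among others. Igf2bp1 had 7 counts in all of CTRL and rose to 0.437 ± 0.091 CPM at 3 DPA and 0.237 ± 0.073 at 5 DPA, against 0.056 ± 0.028 in CTRL (log2 2.89 ± 0.55 and 2.02 ± 0.56, edgeR adjusted p = 0.0037 and 0.047). Igf2bp1 passed the filter on low counts only through 3 and 5 DPA libraries, where it is high. Its calls, and its part in the counts of higher genes given above, are therefore a description. The 5 DPA call of Igf2bp1 was lost without CTRL replicate 2 (0.13) or 3 (0.11) and without DT 5 DPA replicate 1 (0.18), 2 (0.057) or 3 (0.11), and also with DESeq2 (0.071). Igf2bp2 rose at 3 DPA to 11.4 ± 0.55 CPM, against 7.78 ± 0.35 in CTRL (adjusted p = 0.011), a call lost without DT 3 DPA replicate 1 (0.058). Igf2bp3 rose at 1 DPA to 0.853 ± 0.367 CPM, against 0.289 ± 0.046 in CTRL (adjusted p = 0.023), a call lost without CTRL replicate 1 (0.059) or 3 (0.055) or without DT 1 DPA replicate 2 (0.064) or 3 (0.091).

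**Figure D4:**
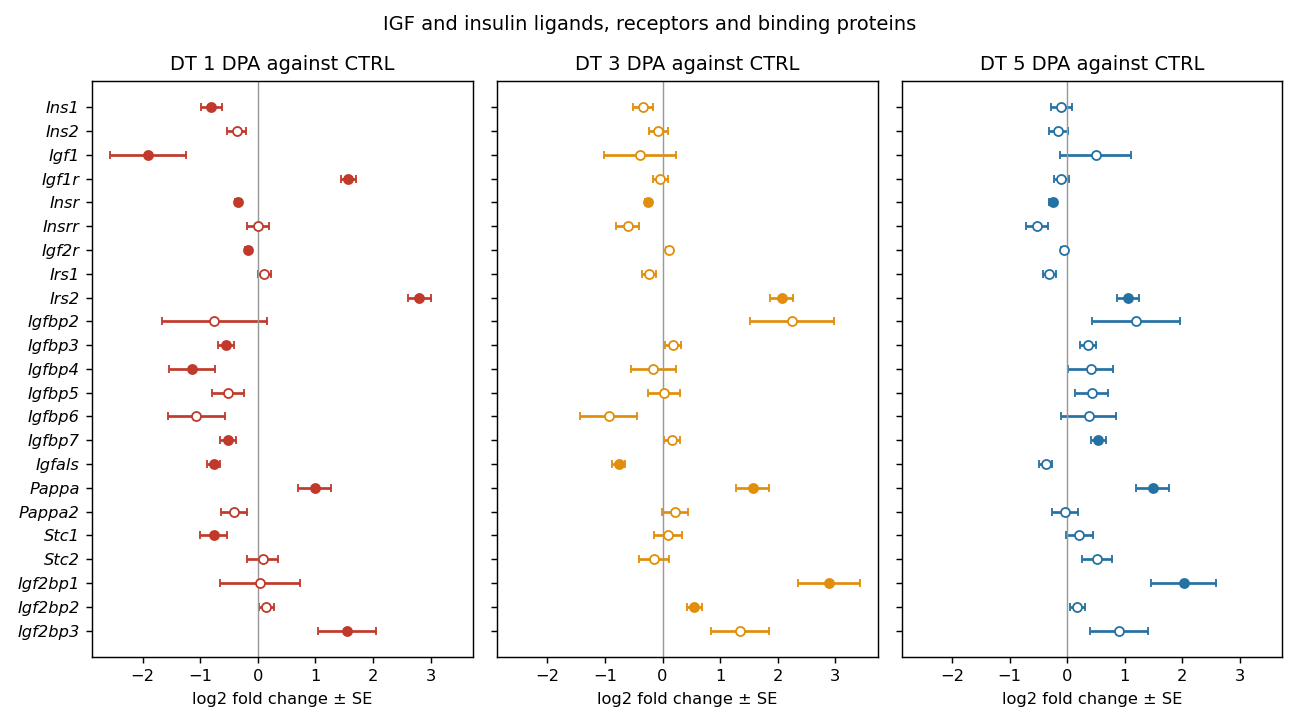
Log2 fold change against CTRL (± SE) of 23 genes of the IGF and insulin system at 1, 3 and 5 DPA, with filled points where the edgeR adjusted p was under 0.05. Irs2 lies to the right at all 3 times and descends, and Igf1r lies to the right at 1 DPA and near 0 at 3 and 5 DPA.

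The wider chromosome 7 cluster holds further imprinted genes and their neighbours. Of 17 tested, 3 were higher and 6 lower at 1 DPA, 2 higher and 1 lower at 3 DPA, and 2 higher and 1 lower at 5 DPA, with medians of -0.37, -0.01 and 0.15 on the log2 scale against -0.05, -0.01 and 0.01 for all genes. The 52.9% called at 1 DPA were near the 51.6% of all tested genes, and 17.6% were called at 3 DPA and at 5 DPA, against 12.6% and 8.54% of all genes. The lower gene at 3 DPA is Trpm5, and without CTRL replicate 3, DT 3 DPA replicate 1 or DT 3 DPA replicate 3 the count was 0. With only the 2 compared groups in the fit, the 5 DPA count of 2 higher was 0. Tnfrsf22 and Tnfrsf23, decoy receptors for the death ligand TRAIL in mouse, were higher, Tnfrsf22 by 0.83 ± 0.12 at 1 DPA and 0.72 ± 0.12 at 3 DPA (edgeR adjusted p = 0.00015 and 0.0018) and Tnfrsf23 by 0.51, 0.60 and 0.44 (SE 0.08 each) at 1, 3 and 5 DPA (adjusted p = 0.00018, 0.00030 and 0.0070). Slc22a18, a transporter, was lower at 1 DPA by 0.84 ± 0.19 (adjusted p = 0.0032). Cdkn1c, the maternally expressed cell cycle inhibitor p57, stood at 6.33 ± 0.77 CPM at 1 DPA, 7.96 ± 1.75 at 3 DPA and 7.98 ± 0.94 at 5 DPA, against 8.44 ± 0.46 in CTRL, and was not called (adjusted p = 0.052, 0.81 and 0.81). Kcnq1ot1, the paternal noncoding RNA of the neighbouring domain, had 0 counts in all 12 libraries.

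Imprinted genes on other chromosomes or in other domains were called about as often as all genes at 1 and 5 DPA. Of 32 tested, 6 were higher and 9 lower at 1 DPA, 3 higher and 3 lower at 3 DPA, and 1 higher and 2 lower at 5 DPA, with medians of -0.18, 0.01 and -0.06 log2 units against -0.05, -0.01 and 0.01 for all genes. In all, 46.9%, 18.8% and 9.38% were called, against 51.6%, 12.6% and 8.54% of all tested genes. The 9 lower at 1 DPA were 5 without DT 1 DPA replicate 1. The 3 higher at 3 DPA were 0 without CTRL replicate 1, DT 3 DPA replicate 2 or DT 3 DPA replicate 3 and 1 without DT 3 DPA replicate 1. The 3 lower at 3 DPA were 0 without DT 3 DPA replicate 3 and 1 without CTRL replicate 3. The 2 lower at 5 DPA were 5 without CTRL replicate 1 and 1 without CTRL replicate 3 or any single DT 5 DPA library. With only the 2 compared groups in the fit, the higher and the lower count at 3 DPA and the higher count at 5 DPA were each 0, and the lower count at 5 DPA was 1.

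Inpp5f, an inositol phosphatase with an imprinted isoform, had the largest change of that list at 1 DPA, with 210 ± 34.9 CPM at 1 DPA against 68.2 ± 4.79 in CTRL (log2 1.62 ± 0.11, edgeR adjusted p = 5.6e-07). Rasgrf1, a paternally expressed exchange factor, was higher at 1 DPA by 0.70 ± 0.15 log2 units (adjusted p = 0.0021). Mest, a paternally expressed gene of fetal growth, rose later, with 29.2 ± 4.78 CPM at 5 DPA against 18.3 ± 2.69 in CTRL (log2 0.67 ± 0.13, adjusted p = 0.0098), and was not called at 1 DPA (-0.02 ± 0.13). The 5 DPA call of Mest was lost with only the 2 compared groups in the fit (edgeR adjusted p = 0.071). Zim1, a zinc finger gene, was lower at each time by 0.67, 0.63 and 0.60 log2 units (SE 0.15 each, adjusted p = 0.0032, 0.017 and 0.032). The 3 DPA call of Zim1 was lost without DT 3 DPA replicate 3 (0.054), and the 5 DPA call without CTRL replicate 3 (0.090) or DT 5 DPA replicate 1 (0.096), 2 (0.069) or 3 (0.10). Ppp1r9a, a neuronal scaffold protein gene, was lower at 5 DPA, with 35.7 ± 0.79 CPM against 43.9 ± 2.14 in CTRL (adjusted p = 0.0096).

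Several further calls among imprinted genes depended on single libraries. Asb4, a maternally expressed gene of a ubiquitin ligase subunit, was higher by 0.74 ± 0.22 log2 units at 1 DPA (edgeR adjusted p = 0.016), a call lost without CTRL replicate 1 (0.065) or 2 (0.069) or DT 1 DPA replicate 3 (0.10). At 3 DPA it was higher by 0.80 ± 0.22 (0.035), a call lost without CTRL replicate 1 (0.097) or 2 (0.12) or DT 3 DPA replicate 2 (0.062) or 3 (0.15). Rtl1, a paternally expressed placental gene, was lower at 1 DPA by 0.79 ± 0.30 (0.045), a call lost without CTRL replicate 1 (0.054) or 3 (0.17) or any single DT 1 DPA library (0.13, 0.053 and 0.079). Peg3, a paternally expressed zinc finger gene, was lower at 3 DPA, with 1278 ± 154 CPM against 1831 ± 365 in CTRL (0.029), a call lost without CTRL replicate 3 (0.085) or DT 3 DPA replicate 1 (0.075) or 3 (0.11).

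Th belongs to the pathway of catecholamine synthesis, storage, breakdown and reception. Of 19 tested genes of this pathway, 1 was higher and 8 lower at 1 DPA, and 0 were higher (1 at an unadjusted p under 0.05) and 3 lower at 5 DPA, with medians of -0.31 and -0.14 log2 units against -0.05 and 0.01 for all genes. Among all tested genes 29.2% were higher and 22.4% lower at 1 DPA, and 5.87% higher and 2.67% lower at 5 DPA. The 47.4% of the list called at 1 DPA in either direction were near the 51.6% of all genes. At 3 DPA 0 of the 19 were called by edgeR in either direction, against 12.6% of all tested genes (10.2% higher and 2.37% lower). The median there was -0.08, against -0.01 for all genes. Lower genes of the list at 3 DPA numbered 2 with DESeq2, 2 with library sizes without the 50 most abundant genes and 1 with RLE size factors. At an unadjusted p under 0.05 they numbered 3. The 3 lower at 5 DPA were 0 without CTRL replicate 3 or DT 5 DPA replicate 1 and 1 without DT 5 DPA replicate 3. Ddc, which acts after Th to form dopamine, fell at 1 DPA to 320 ± 55.9 CPM, against 425 ± 29.1 in CTRL (log2 -0.41 ± 0.13, adjusted p = 0.019), and was not called at 3 DPA (-0.23 ± 0.13) or 5 DPA (-0.34 ± 0.13). Qdpr, which regenerates the tetrahydrobiopterin cofactor of Th, fell at 1 DPA to 69.8 ± 4.34 CPM, against 102 ± 2.03 in CTRL (adjusted p = 4.0e-05).

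Maoa, a catecholamine-degrading oxidase, fell at 1 DPA by 0.53 ± 0.12 log2 units (edgeR adjusted p = 0.0040). The alpha-2A adrenergic receptor Adra2a was the called gene that was higher at 1 DPA, with 324 ± 25.3 CPM against 222 ± 17.5 in CTRL (adjusted p = 0.00061). The lower genes at 5 DPA included Maob, another amine oxidase (142 ± 12.8 CPM against 185 ± 2.38 in CTRL, adjusted p = 0.018), and Gch1, which starts tetrahydrobiopterin synthesis (166 ± 9.03 CPM against 209 ± 12.1 in CTRL, adjusted p = 0.016). The call of Maob was lost without CTRL replicate 3 (0.051) or DT 5 DPA replicate 1 (0.085), and that of Gch1 without CTRL replicate 3 (0.056) or DT 5 DPA replicate 1 (0.081) or 3 (0.058). Dbh, which converts dopamine to noradrenaline in sympathetic neurons, had 12 counts in all of 1 DPA against 76 in CTRL (log2 -2.40 ± 0.86, adjusted p = 0.034). Its call was lost without CTRL replicate 1 (0.090) or 3 (0.051) and without DT 1 DPA replicate 1 (0.11), 2 (0.059) or 3 (0.071). Slc18a2, the vesicular monoamine transporter, was not called at any time (log2 -0.15 ± 0.26, 0.14 ± 0.25 and 0.10 ± 0.25).

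Of factors known to act at imprinted loci or on Igf2, 5 of 21 tested were higher and 5 lower at 1 DPA, 3 higher and 0 lower at 3 DPA, and 2 higher and 1 lower at 5 DPA, with medians of -0.21, 0.06 and -0.07 log2 units against -0.05, -0.01 and 0.01 for all genes. In all, 47.6%, 14.3% and 14.3% were called, against 51.6%, 12.6% and 8.54% of all tested genes. The 5 lower at 1 DPA were 3 without DT 1 DPA replicate 1 or 2 and 3 with only the 2 compared groups in the fit. The 3 higher at 3 DPA were 1 without DT 3 DPA replicate 1, and the 0 lower there were 2 without CTRL replicate 1, 1 without CTRL replicate 2, 1 with each of DESeq2, RLE size factors, no filter, library sizes without the 50 most abundant genes and the replicate block, and 2 at an unadjusted p under 0.05. The 1 lower at 5 DPA was 4 without CTRL replicate 1 and 0 without CTRL replicate 3 or any single DT 5 DPA library. Ctcf, the insulator protein of the control region, stood at 88.5 ± 3.52 CPM at 1 DPA, 85.3 ± 2.68 at 3 DPA and 80.3 ± 3.14 at 5 DPA, against 84.4 ± 3.55 in CTRL, and was not called (edgeR adjusted p = 0.33, 0.91 and 0.46).

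Egr1, an immediate-early transcription factor, rose at each time to 514 ± 78.4, 5886 ± 2003 and 2223 ± 499.5 CPM at 1, 3 and 5 DPA, against 98.5 ± 52.6 in CTRL (edgeR adjusted p = 0.00063, 3.8e-05 and 0.00063). Its mean was highest at 3 DPA and that of Igf2 at 1 DPA. Trim28 and Smarca5, a corepressor that protects imprints and a chromatin remodeller, were higher at 1 DPA by 0.85 ± 0.08 and 0.82 ± 0.06 log2 units (adjusted p = 4.3e-06 and 8.3e-07). Uhrf1, which with Dnmt1 maintains DNA methylation in dividing cells, was higher at 5 DPA, with 12.03 ± 3.57 CPM against 3.98 ± 1.14 in CTRL (adjusted p = 0.0068). Wt1, a transcription factor of mesenchymal cells that acts on Igf2, was lower at 1 DPA (log2 -2.82 ± 1.10, adjusted p = 0.049), a call lost without CTRL replicate 1 (0.15) or 2 (0.090) or DT 1 DPA replicate 1 (0.14) or 2 (0.14).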

How the data were processed

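The authors deposited whole-number read counts and TPM values for each gene in each library, as the headers of the file say. An RNeasy Mini kit yielded the RNA and a QIAseq stranded mRNA kit the libraries, per the labels' protocols. Per the submitters' processing notes, mm10 was used. Aligner, counter, annotation release and use of strand are not given in the sources at hand. Of the table's per-sample columns, 12 of counts and 12 of TPM were used and 24 others were not used. Groups came from the labels. The labels do not say whether replicates are separate animals, so the p-values reflect only how these libraries vary, and that variation may be technical. All replicate pairs differed by more than sampling noise.

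Genes passing filterByExpr (minimum count 10) were normalised with TMM. The edgeR quasi-likelihood fit was robust and took all 12 libraries with 1 mean per group, with Benjamini-Hochberg adjustment over all 17294 tested genes. The code was also run on counts simulated from the fitted model, which cannot show whether that model suits these data. Standard errors came from the F statistic. Positions came from GENCODE M21, where 48349 of 48709 identifiers matched, and promoter sequences from RefSeq. Software was edgeR 4.0.16, DESeq2 1.42.0 and limma 3.58.1 under R 4.3.3. The members and gene lists were chosen with earlier results of these data known. Genes named were the members, neighbours within 500 kb that were called or reached 1 CPM, and up to 4 called genes with the largest change per list and time plus a few fixed genes. Alternatives were RLE size factors, DESeq2, no filter, library sizes without the 50 most abundant genes, only the compared groups, a replicate block, leaving out each library and, for the members, the deposited TPM. Results of 1 gene of the lists are not reported here.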

Additional observations from a re-analysis of the deposited data

Results flagged for a closer look

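Ctsd and Igfbp7 were each called lower at 1 DPA and higher at 5 DPA against the same CTRL libraries. Because these calls picked the 2 genes, the difference between the times, a contrast chosen after seeing the data, is given as a value and not as a test. Both 5 DPA calls were lost with only the 2 compared groups in the fit (edgeR adjusted p = 0.068 for Ctsd and 0.14 for Igfbp7). Ctsd, the lysosomal protease cathepsin D, stood at 811 CPM at 5 DPA against 251.1 CPM at 1 DPA, a log2 difference of 1.69 ± 0.18 (SE), with all 3 libraries at 5 DPA above all 3 at 1 DPA. Igfbp7, a secreted IGF-binding protein of stromal and endothelial cells, stood at 676.2 CPM at 5 DPA against 323.5 CPM at 1 DPA, a log2 difference of 1.06 ± 0.14 (SE). The summed stromal markers were 2649 to 4421 CPM at 5 DPA and 550 to 693 CPM at 1 DPA, the 6 endothelial markers 932 to 1066 CPM and 635 to 691 CPM, and the 7 macrophage markers 531 to 739 CPM and 81.9 to 100 CPM. Their part in these differences was not tested.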

How the results depend on the processing

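The 84 values of the 4 transcripts' fold changes under 7 settings other than leaving out a library, deposited TPM values among them, all moved by less than 1 SD between replicates and kept their direction. Leaving out 1 library gave log2 fold changes at 1 DPA of 9.14 to 9.81 for Igf2os and -4.19 to -2.84 for H19, and of -2.38 to -0.13 for H19 at 3 DPA. The count of called genes at 5 DPA, 1477 in the reported fit, was 2400 with DESeq2 and 622 with only the 2 compared groups, and the cause was not tested. Leaving out 1 library gave 7852 to 9619 called genes at 1 DPA, 1372 to 2249 at 3 DPA and 462 to 2137 at 5 DPA. The share of called genes that were higher at 3 DPA was 81.2%, against 67.1% with library sizes without the 50 most abundant genes and 67.5% with DESeq2. A replicate block gave 8430, 2069 and 1330 called genes at 1, 3 and 5 DPA. Deviations of libraries with the same replicate number correlated by -0.47 to 0.06, and 1 of 9 correlated best with its own number. With 3 libraries per group, this cannot show whether libraries were paired. H19 rests on 1 to 55 counts per library, and so on counting error.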
